A study of Mus musculus with 1617 samples.

Results

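Single cells sorted for macrophage surface markers from the embryonic mouse brain, at the age labelled E12.5, were divided by their level of F13a1. This gene encodes the A subunit of coagulation factor XIII, a transglutaminase that crosslinks fibrin. Some cells of both sets held markers of other cell kinds, as given below. The cells were chosen by measured values: 76 cells held F13a1 at 100 TPM or more and 36 cells held it below 1 TPM, with 34 cells of this age between these levels and 1617 cells in the series. TPM is a transcript level scaled by transcript length and to the same total in each cell. The labels give the source as microglia of whole mouse brain and the gate as CD45+F4/80+CD11b+Ly6C-. Cells were loaded on Fluidigm C1 chips, which isolate them singly, and each gave a separate library. Both sets of cells share that source, age and gate, no treatment or genotype is labelled for either, and no label used here names a strain or a number of embryos. The same division of the whole-brain cells labelled E16.5, which the choice of cells did not use, gave 54 cells at 100 TPM or more, 60 between and 12 below 1 TPM.

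Brain macrophages descend from yolk-sac progenitors that enter the head early in development. Microglia settle in the parenchyma and take on a programme that includes the purinergic receptor P2ry12 and the membrane protein Tmem119. Border-associated macrophages lie in the meninges, choroid plexus and perivascular spaces, and are marked by the mannose receptor Mrc1, the chemokine Pf4 and the hyaluronan receptor Lyve1. F13a1 is a known marker of tissue macrophages of the Mrc1-bearing kind.

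F13a1 itself (chromosome 13, 36867178 to 37050244, minus strand, GRCm38) had a lowest level of 108.25, a median of 965 and a highest of 5603 TPM in the 76 cells. It lay between 0 and 0.91 TPM in the 36 cells, 14 of which were listed at 0. These levels are the choice itself and no result. Just inside the upper bound were cells at 108.25 and 138.15 TPM and just outside it cells at 99.61 and 93.5 TPM. Just inside the lower bound were cells at 0.91 and 0.89 TPM and just outside it cells at 1.01 and 1.13 TPM. The cells left between the bounds had a median of only 3.57 TPM.

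No embryo, litter or preparation is named, so the E12.5 cells make up 1 sample, cells are not replicates, and no test was made. Every other gene was measured in the same cells as F13a1, so differences between the sets are given as a description. A pair of numbers describes each gene: the log2 ratio of the mean TPM in F13a1-high over F13a1-negative cells with 1 TPM added to each mean, and the difference of the mean of log2(TPM + 1). A gene counted as higher or lower where the first was at least 2-fold and the second at least 1 in the same direction.

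Genes found at 1 TPM or more numbered 1666 to 6482 per F13a1-high cell (median 5008) and 1250 to 6178 per F13a1-negative cell (median 4420.5). Fewer than 4000 genes were found in 12 of the 76 and 11 of the 36 cells. Mitochondrial transcripts made up a median of 5.71% and 6.09% of TPM and a mean of 7.77% and 13.7%, and reached 20% in 3 of 76 and 5 of 36 cells. Without these cells, an alternative added after the data were seen, 5.49% of measured genes were higher and 1.51% lower. Macrophage genes were found in most cells of both sets. Of 11 measured sort and pan-macrophage genes 1 was higher and 0 lower, and the median difference of mean log2 was 1.22 against 0.33 over all measured genes, while the median log2 ratio was -0.14. Fcer1g, the Fc receptor gamma chain, reached 100 TPM in 75 of 76 and 32 of 36 cells, Tyrobp, a signalling adaptor, in 75 and 30, and the CD45 gene Ptprc in 58 and 22. A gene was measured where its mean in either set was at least 5 TPM; of 10702 such genes, 764 (7.14%) were higher and 85 (0.794%) lower in the F13a1-high cells, so that 89.99% of the differing genes were higher. Among cells with 4000 genes or more (64 and 25), an alternative added after the data were seen, 578 were higher and 278 lower, a share of 67.5%. The median log2 ratio of all measured genes was 0.25, and 0.13 with median-ratio scaling of the cells.

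Markers of border-associated macrophages formed the clearest group on the higher side. Of 20 listed markers 16 were measured, and 13 of these were higher and 0 lower, against 7.14% higher among all genes; the median log2 ratio was 2.40 and the median difference of mean log2 2.98. With 4000 genes or more per cell 10 were higher and 0 lower, against 5.32% higher among all genes, and with less than 20% of mitochondrial transcripts 12 and 0, against 5.49%. Mrc1 (chromosome 2, 14229392 to 14332057, plus strand), an endocytic receptor for mannose-bearing glycoproteins, ranged from 0 to 6852 TPM with a median of 1223 TPM in the F13a1-high cells. In the F13a1-negative cells it ranged from 0 to 2832 TPM with a median of 1.93 TPM. The sets overlapped, since 7 F13a1-high cells lay below 1 TPM and 10 F13a1-negative cells reached 100 TPM. Apart from a cell with mitochondrial transcripts at 58.7% of TPM, each of those 7 cells held at least 3 listed monocyte markers at 100 TPM. The share of cells at 100 TPM or more was 86.8% (exact Clopper-Pearson 95% interval 77.1 to 93.5%) against 27.8% (14.2 to 45.2%); these intervals, here and below, cover counting error over cells only. The mean was 1390 against 269.37 TPM (log2 ratio 2.36).

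Pf4 (chromosome 5, 90772435 to 90773383, plus strand), a CXC chemokine best known from platelets, had the largest difference of mean log2(TPM + 1) among the leading genes, 6.64. Its lowest, median and highest levels were 0, 2674 and 12509.5 TPM in the F13a1-high cells and 0, 0 and 4429 TPM in the F13a1-negative cells. It reached 100 TPM in 78.9% (68.1 to 87.5%) and 19.4% (8.19 to 36.02%) of them, and 1 F13a1-negative cell carried 45.2% of that set's summed Pf4. Dab2, an endocytic adaptor, had medians of 1485 and 8.49 TPM and reached 100 TPM in 67 and 13 cells. Stab1, a scavenger receptor, had medians of 1640 and 79.6 TPM and reached that level in 64 and 16 cells. Ednrb, the endothelin B receptor, reached it in 47 and 5 cells, with means of 449 and 59.8 TPM. For all of these the highest F13a1-negative cells lay within the range of the F13a1-high cells.

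Lyve1 differed in kind from these genes, because it was near 0 in nearly all F13a1-negative cells but present in only some F13a1-high ones. Its lowest, median and highest levels were 0, 1.25 and 4089 TPM against 0, 0 and 19.99 TPM. It reached 100 TPM in 28 of 76 cells (36.8%, 26.1 to 48.7%) and in 0 of 36, a count that allows up to 8.33%. All 28 cells also held Mrc1 at 100 TPM. Folr2, the folate receptor beta, reached 100 TPM in 34 and 4 cells and Colec12, a scavenger collectin, in 18 and 0. Ms4a7, Clec10a, Mgl2, Ccl24 and the transcription factor gene Maf were the other markers past the fold. The haemoglobin scavenger receptor Cd163 and Cbr2 were below a mean of 5 TPM in both sets, and Cd209f and Cd209g were listed at 0 in every cell of both.

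**Figure D1:**
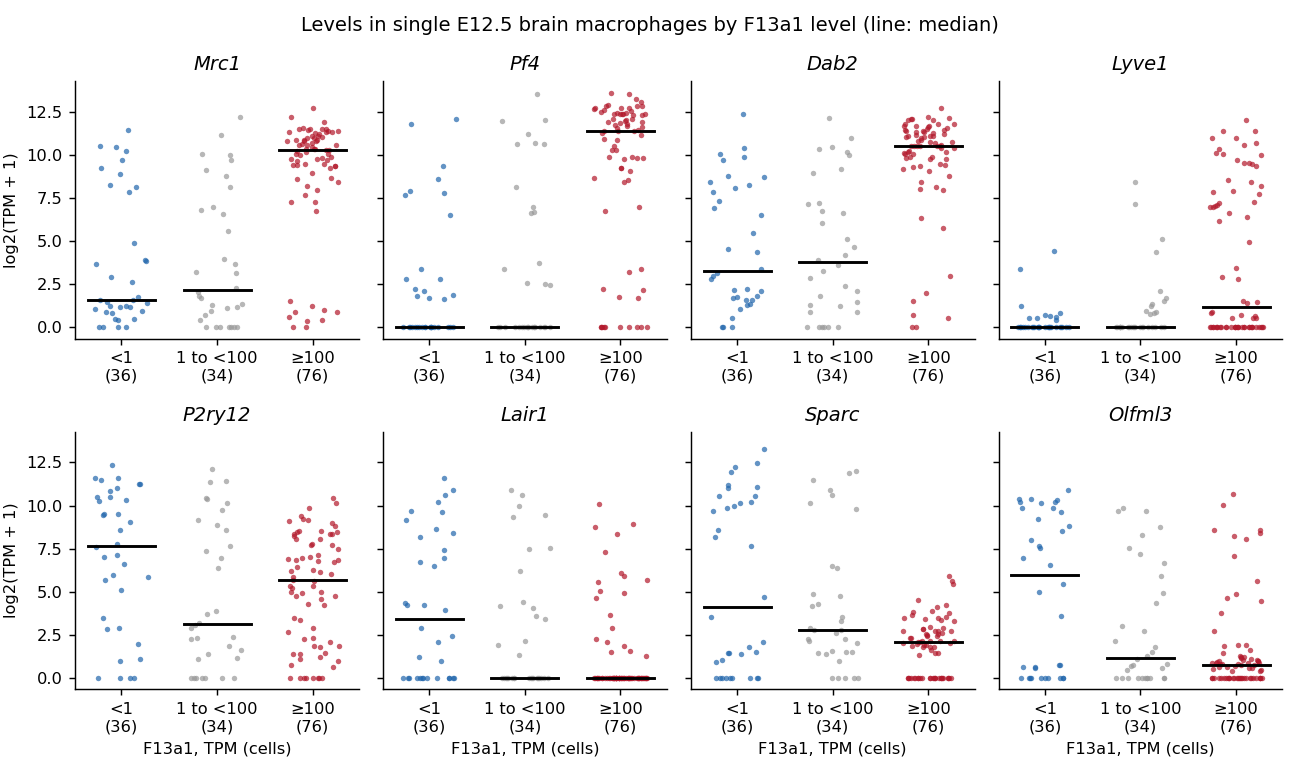
Level of 8 genes in single E12.5 cells, as log2(TPM + 1) on the vertical axis, for cells with F13a1 below 1 TPM (36), from 1 to below 100 TPM (34) and at 100 TPM or more (76); each point is a cell and each line a median. Mrc1, Pf4 and Dab2 are high in most cells at 100 TPM or more, Lyve1 in 28 of them, and Sparc reaches 100 TPM in none of them.

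Start sites of F13a1 and of 4 genes described here are shown to let their sequence be seen beside the levels; they are a choice and do not stand for all leading genes. The windows run from 250 bases before to 50 after a RefSeq start on GRCm38.p6, 5′ to 3′ on the gene's strand, and capitals mark GAGGAA, or its reverse complement TTCCTC, a core sequence bound by the macrophage factor PU.1, which Spi1 encodes. F13a1 has another listed start at chr13:37049164-37049463 (minus strand), whose window holds the core 1 time.
F13a1, chr13:37050195-37050494, minus strand: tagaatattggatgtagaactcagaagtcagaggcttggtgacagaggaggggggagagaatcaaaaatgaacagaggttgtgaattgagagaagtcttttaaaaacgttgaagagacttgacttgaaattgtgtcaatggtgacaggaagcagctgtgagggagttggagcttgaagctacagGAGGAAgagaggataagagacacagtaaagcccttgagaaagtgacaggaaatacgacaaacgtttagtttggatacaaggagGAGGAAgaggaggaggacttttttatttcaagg
Pf4, chr5:90772185-90772484, plus strand: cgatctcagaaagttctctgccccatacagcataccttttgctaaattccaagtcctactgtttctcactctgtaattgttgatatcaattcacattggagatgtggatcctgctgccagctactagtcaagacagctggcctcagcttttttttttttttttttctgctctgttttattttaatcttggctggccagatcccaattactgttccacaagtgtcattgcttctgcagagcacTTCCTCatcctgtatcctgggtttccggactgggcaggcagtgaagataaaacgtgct
Mrc1, chr2:14229164-14229463, plus strand: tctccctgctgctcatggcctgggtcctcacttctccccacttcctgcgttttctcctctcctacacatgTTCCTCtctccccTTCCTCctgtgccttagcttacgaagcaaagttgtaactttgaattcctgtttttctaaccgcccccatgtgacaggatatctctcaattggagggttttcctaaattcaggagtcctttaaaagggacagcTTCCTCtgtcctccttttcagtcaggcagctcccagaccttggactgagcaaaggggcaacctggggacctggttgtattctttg
P2ry12, chr3:59262936-59263235, minus strand: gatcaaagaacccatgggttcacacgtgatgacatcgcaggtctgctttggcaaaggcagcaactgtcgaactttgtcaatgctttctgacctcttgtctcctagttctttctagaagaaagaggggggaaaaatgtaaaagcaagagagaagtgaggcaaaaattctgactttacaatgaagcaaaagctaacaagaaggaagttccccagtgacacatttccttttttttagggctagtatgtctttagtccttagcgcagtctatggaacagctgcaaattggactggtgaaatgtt
Sparc, chr11:55420031-55420330, minus strand: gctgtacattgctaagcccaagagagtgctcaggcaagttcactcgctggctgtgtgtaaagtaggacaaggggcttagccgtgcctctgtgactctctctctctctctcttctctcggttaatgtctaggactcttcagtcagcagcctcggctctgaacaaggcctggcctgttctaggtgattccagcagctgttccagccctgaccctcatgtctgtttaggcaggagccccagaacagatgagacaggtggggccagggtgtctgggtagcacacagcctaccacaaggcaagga
The window of F13a1 held the core 2 times, that of Pf4 1 time and that of Mrc1 3 times. Those of P2ry12 and Sparc, both lower in F13a1-high cells, held it 0 times. It occurs in 28.3% of all 32851 windows of this length, on either strand. Among the 12 leading genes in each direction, 10 had a window on each side, and 6 of those of the higher and 4 of those of the lower genes held the core, so the windows printed divide more sharply than the leading genes do. Spi1 had means of 70.5 and 13.8 TPM (log2 ratio 2.27) and reached 100 TPM in 12 and 1 cells.

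Markers of homeostatic microglia lay on the lower side, but not as a whole. Of 19 listed markers, all measured, 10 were lower and 1 higher, against 0.794% lower among all genes; the median log2 ratio was -2.33, and -1.21 as a difference of mean log2 values. P2ry12 (chromosome 3, 59216272 to 59262871, minus strand), which senses ADP, had lowest, median and highest levels of 0, 49.5 and 1365 TPM in F13a1-high cells and 0, 202.96 and 5201 TPM in F13a1-negative cells. It reached 100 TPM in 40.8% (29.6 to 52.7%) and 58.3% (40.8 to 74.5%) of cells, and these intervals overlap, while the means were 166.56 and 900.01 TPM (log2 ratio -2.43). At 1 TPM or more the shares were 85.5% and 86.1%.

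Sparc (chromosome 11, 55394500 to 55423183, minus strand), a secreted collagen-binding protein, had the lowest log2 ratio of the 19 homeostatic markers. Its lowest, median and highest levels were 0, 3.12 and 58.7 TPM in F13a1-high cells and 0, 17.6 and 9904 TPM in F13a1-negative cells. It reached 100 TPM in 0 of 76 cells, a count that allows up to 3.95%, and in 17 of 36 (47.2%, 30.4 to 64.5%). At 1 TPM, however, it was found in 51 and 26 cells, so low values of it were common in both. The mean was 5.88 against 1113 TPM (log2 ratio -7.34).

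Olfml3, a secreted olfactomedin-like protein, reached 100 TPM in 8 and 17 cells, and Tmem119, a microglial membrane protein, in 2 and 6. The transcription factor genes Sall1 and Sall3 reached it in 0 of 76 cells and in 4 of 36 each. Siglech, Slc2a5 and Selplg were also lower. Cx3cr1, the fractalkine receptor, did not differ past the fold, at means of 726 and 797 TPM, nor did Fcrls (1685 and 2338), Cst3 (1949 and 3169) or Gpr34 (236.81 and 353.72). The 1 higher gene of this list was Rtp4, a receptor transport protein also induced by interferon, at means of 160 and 52.7 TPM.

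**Figure D2:**
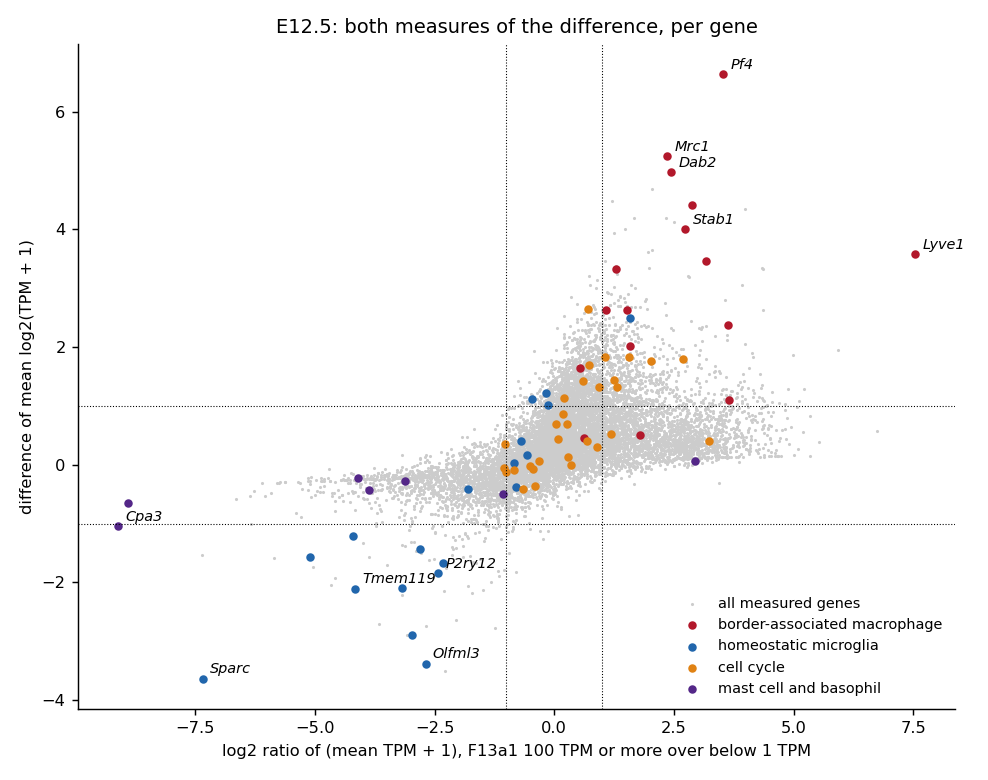
Each point is 1 of the 10702 measured genes at E12.5; the horizontal axis is the log2 ratio of mean TPM with 1 TPM added, the vertical axis the difference of mean log2(TPM + 1), and dotted lines mark 1 and -1 on both. Border-associated markers (red) lie at upper right, with Lyve1 at 7.54 and Pf4 at 3.54 on the horizontal axis, and 10 of 19 homeostatic markers (blue) lie at lower left, with Sparc at -7.34.

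Markers of both lists were also counted in each cell. Cx3cr1, Fcrls, Cst3 and Gpr34 are on the homeostatic list but did not pass the fold, and Csf1r is also on the pan-macrophage list. Holding 5 homeostatic markers therefore does not by itself show a microglial programme. At least 5 border-associated markers at 100 TPM were held by 63 of 76 F13a1-high cells (82.9%, 72.5 to 90.6%), by 8 of 36 F13a1-negative cells (22.2%, 10.1 to 39.2%) and by 7 of the 34 cells between. At least 5 homeostatic markers were held by 61, 24 and 15 cells of these sets. Most F13a1-high cells thus counted for both, 56 of 76 (73.7%, 62.3 to 83.1%), against 5 of 36 (13.9%, 4.67 to 29.5%). Neither list was reached by 8 of 76 F13a1-high cells and 9 of 36 F13a1-negative cells. Fewer than 4000 genes were held by 4 of these 8 cells and 7 of these 9 cells. Among the 9 were the 2 F13a1-negative cells with at least 3 mast cell and basophil markers at 100 TPM. The 1 F13a1-negative cell with at least 3 neutrophil markers and that with the highest summed neural markers were also among them. So were the 5 F13a1-negative cells in which mitochondrial transcripts reached 20% of TPM. Among the 8 F13a1-high cells were cells with 4, 6 and 8 monocyte markers at 100 TPM. The F13a1-high cells with the highest summed neutrophil markers (269108 TPM) and the highest mitochondrial share (58.7%) were also among the 8. Whether the 8 and the 9 cells were macrophages was not tested. With 4000 genes or more, 50 of 64 F13a1-high cells counted for both, and 16 of 25 F13a1-negative cells for the homeostatic list alone. The summed TPM of the border-associated list had medians of 11600 and 605, and that of the homeostatic list 5941 and 12402.

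The F13a1-negative cells were mixed. At 100 TPM, 17 cells held Sparc and all 17 also held P2ry12. Pf4 was held by 7 cells, 6 of them with Mrc1 and 1 of them with Sparc, so the Sparc and Pf4 cells shared 1 cell. Of the 10 cells with Mrc1, 5 also held P2ry12 and 3 held Sparc. Across the 36 cells Sparc went with P2ry12 (Spearman rho 0.82) and Mrc1 with Pf4 (0.74). Pf4 and P2ry12 had a rho of -0.22, and Mrc1 and P2ry12 of -0.03. The 36 cells include the 9 that counted for neither list, and no rho was computed without them. Rank correlations are given as descriptions with no test, since the cells share 1 sample and differ in genes detected.

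Within the 76 F13a1-high cells the level of F13a1 still varied over a wide range. Among border-associated markers it had a Spearman rho of 0.55 with Mrc1, 0.51 with Dab2, 0.38 with Pf4, 0.35 with Ednrb and 0.28 with Lyve1. With Maf, Folr2 and Stab1 it had 0.27, 0.24 and 0.23, and with P2ry12 -0.02. The lower of these values were not particular to border-associated markers. Off that list, Abca1 had 0.32 and the glycolysis gene Gapdh 0.30, while C1qb had -0.09. The rho of F13a1 with the number of genes per cell was 0.20. Mrc1 and Pf4 had a rho of 0.77 with each other; all 60 cells with Pf4 at 100 TPM also held Mrc1, and 6 held Mrc1 alone. Of the 66 Mrc1 cells, 30 also held P2ry12 at 100 TPM.

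**Figure D3:**
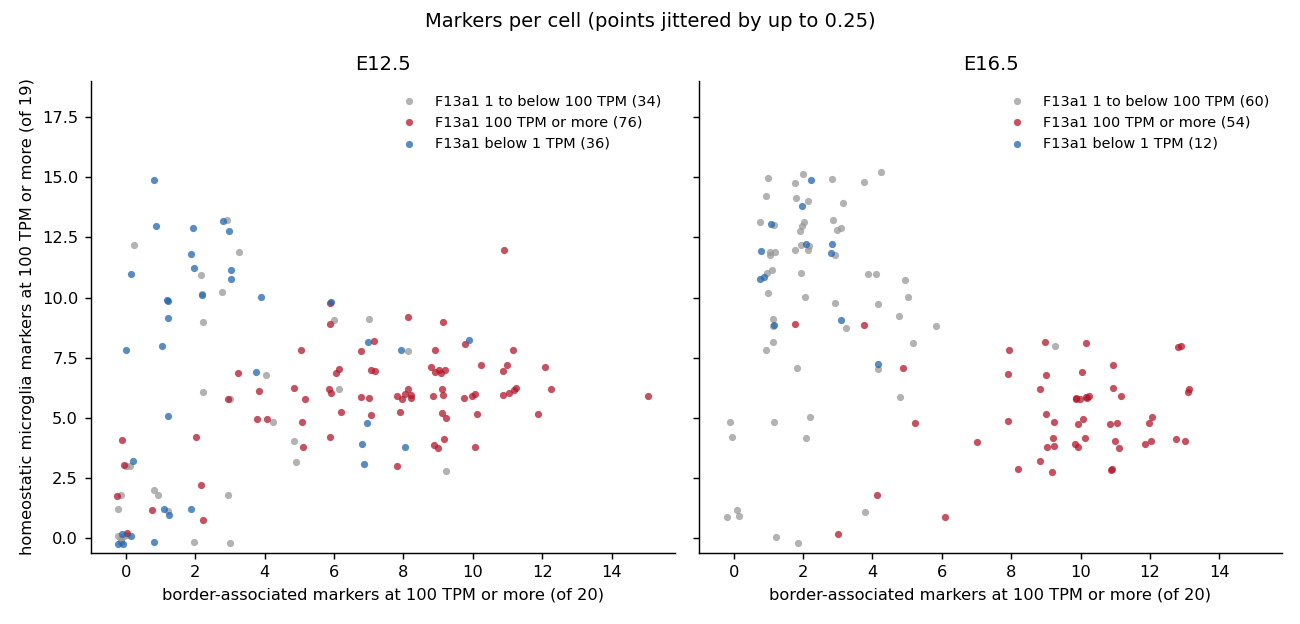
Number of border-associated markers (of 20, horizontal) and homeostatic microglia markers (of 19, vertical) at 100 TPM or more in each cell, at E12.5 and E16.5, coloured by F13a1 level; points are jittered by up to 0.25. At E12.5, 56 of 76 F13a1-high cells hold 5 or more of both, and at E16.5 the 12 F13a1-negative cells all hold 5 or more homeostatic and fewer than 5 border-associated markers.

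The list of uptake receptors shares genes with the border-associated markers. Of 18 measured members 8 were higher and 1 lower, against 7.14% and 0.794% of all genes, and the median log2 ratio was 1.19. Beyond Mrc1, Stab1, Lyve1, Folr2 and Colec12 these were Cd36, a fatty acid and lipoprotein receptor (216.53 and 80.3 TPM), Msr1, the class A scavenger receptor (94.98 and 24.76 TPM), and Fcgr2b, the inhibitory Fc receptor (122.26 and 45.49 TPM). The lysosomal receptor Scarb2 was the lower one, at means of 11.7 and 73.3 TPM. Trem2, a lipid-sensing receptor, did not pass the fold, at 248.54 and 452.77 TPM. Mertk, a receptor for dying cells, had means of 54.47 and 134.49 TPM (log2 ratio -1.29), but its difference of mean log2 was -0.25 and it was not counted. With 4000 genes or more per cell, 7 members were higher and 3 lower, against 5.32% and 2.56% of all genes.

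Few genes of coagulation, the process in which F13a1 acts, were measured. Of 36 listed genes 11 were; 2 of these were higher and 1 was lower, against 7.14% and 0.794% of all genes, and the median log2 ratio was -0.10. F13b, which encodes the other subunit of factor XIII, and the fibrinogen genes Fga, Fgb and Fgg were listed at 0 in every cell of both sets. Gas6, the bridging ligand of the TAM receptors, had means of 187.17 and 11.50 TPM (log2 ratio 3.91) and reached 100 TPM in 30 and 1 cells. S100a10, part of a plasminogen-binding complex, had means of 106.66 and 50.83 TPM, but its partner Anxa2 had 385 and 399 TPM. Serpine2, an inhibitor of thrombin and plasminogen activators, was lower, at means of 10.8 and 281 TPM (log2 ratio -4.58), and reached 100 TPM in 1 and 11 cells. Among haem-handling genes the biliverdin reductases Blvrb (475.93 and 114.34 TPM) and Blvra (310.80 and 122.84 TPM) were the 2 of 16 measured that were higher, against 7.14% of all genes. Haem oxygenase Hmox1, at 511 and 281 TPM, stayed within the fold, and 1 F13a1-negative cell carried 57.1% of its sum there.

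Among the leading genes outside these lists, Ms4a4a, a four-span membrane protein of macrophages, had medians of 1090.08 and 3.41 TPM and reached 100 TPM in 59 and 11 cells. Ifitm2, an interferon-induced membrane protein, reached it in 63 and 13 cells, Fcgrt, the neonatal Fc receptor, in 52 and 11, Clec4a1, a C-type lectin, in 45 and 9, and Serpinb6a, a serine protease inhibitor, in 40 and 4. On the lower side Lair1, an inhibitory collagen receptor, reached it in 5 and 13 cells, F11r, a junctional adhesion molecule, in 5 and 14, and Golm1, a Golgi membrane protein, in 9 and 15. Rgs1, a regulator of G protein signalling, reached it in 4 and 11 cells, the lipid enzyme gene Lpcat2 in 8 and 12, the lactate dehydrogenase subunit gene Ldhb in 5 and 9, Gng10 in 15 and 19, Bcl2a1b in 7 and 12 and the tetraspanin gene Cd9 in 23 and 23. Cd9 was therefore found at 100 TPM in 23 of 76 against 23 of 36 cells, and none of these lower genes was absent from the F13a1-high cells. Bcl2a1b has near-identical copies, so its level is uncertain singly.

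Of 30 cell cycle genes 6 were higher and 0 lower, against 7.14% higher among all genes, and the median log2 ratio was 0.32. They were the replication genes Mcm5 (124.27 and 18.34 TPM), Mcm6 (83.7 and 19.9 TPM) and Rrm1 (107.33 and 50.97 TPM) and the mitotic genes Cdk1 (288.36 and 114.85 TPM), Ccnb2 (148.31 and 62.24 TPM) and Birc5 (325.86 and 109.15 TPM). Mki67 was not among them, at 36.8 and 58.7 TPM. At least 5 cell cycle genes at 100 TPM were held by 37 of 76 cells (48.7%, 37.04 to 60.43%) and 12 of 36 (33.3%, 18.56 to 50.97%), and these intervals overlap. Among cells with 4000 genes or more the shares were 54.7% and 40%, and 4 cell cycle genes were higher. The number of genes per cell moved with this list, and its part in the difference was not tested.

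Of 17 measured macrophage transcription factor genes 5 were higher and 2 lower, and of 17 measured interferon response genes 4 were higher and 0 lower, against 7.14% and 0.794% of all genes. Both counts moved with genes per cell: with 4000 genes or more they were 2 higher and 3 lower, and 1 higher and 0 lower, against 5.32% and 2.56%. Maf, a large Maf factor, had medians of 678.34 and 183.78 TPM and reached 100 TPM in 72 and 24 cells. Tfec, a relative of Mitf, had means of 48.1 and 6.86 TPM and Fli1, an Ets factor, 124.40 and 50.07 TPM. Bhlhe41, a basic helix-loop-helix factor, was lower, at means of 20.6 and 709 TPM, 89.1% of the latter from 1 cell. Of the interferon genes, Irf9 had means of 73.9 and 7.96 TPM and Oasl2 91.4 and 25.6 TPM.

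Of 11 measured genes of TGF-beta signalling, a pathway that maintains microglia, 0 were higher and 2 lower, against 7.14% and 0.794% of all genes, the background of each count here. These were the receptor gene Tgfbr1 (34.50 and 168.93 TPM) and the Smad corepressor gene Skil (24.19 and 109.86 TPM). Growth factor genes included Igf1 (294.54 and 112.57 TPM), the semaphorin and VEGF receptor gene Nrp1 (121.995 and 53.28 TPM) and Timp2 (89.97 and 33.70 TPM), which made 3 of 12 higher. Immediate early genes counted 3 of 15 higher, Jun, Dusp1 and Klf6, with Dusp1 at 359.55 and 111.65 TPM. No measured member of the complement (12), lysosome (19), glycolysis (13) or MHC class I (10) lists passed the fold in either direction, though with 4000 genes or more per cell 1 complement and 2 lysosome genes were lower. C1qb had means of 2943 and 3101 TPM, Ctsb 3616 and 3007 TPM, and B2m 2211 and 2350 TPM. Of 6 measured MHC class II genes 1 was lower, H2-DMa, at 23.7 and 79.8 TPM.

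**Figure D4:**
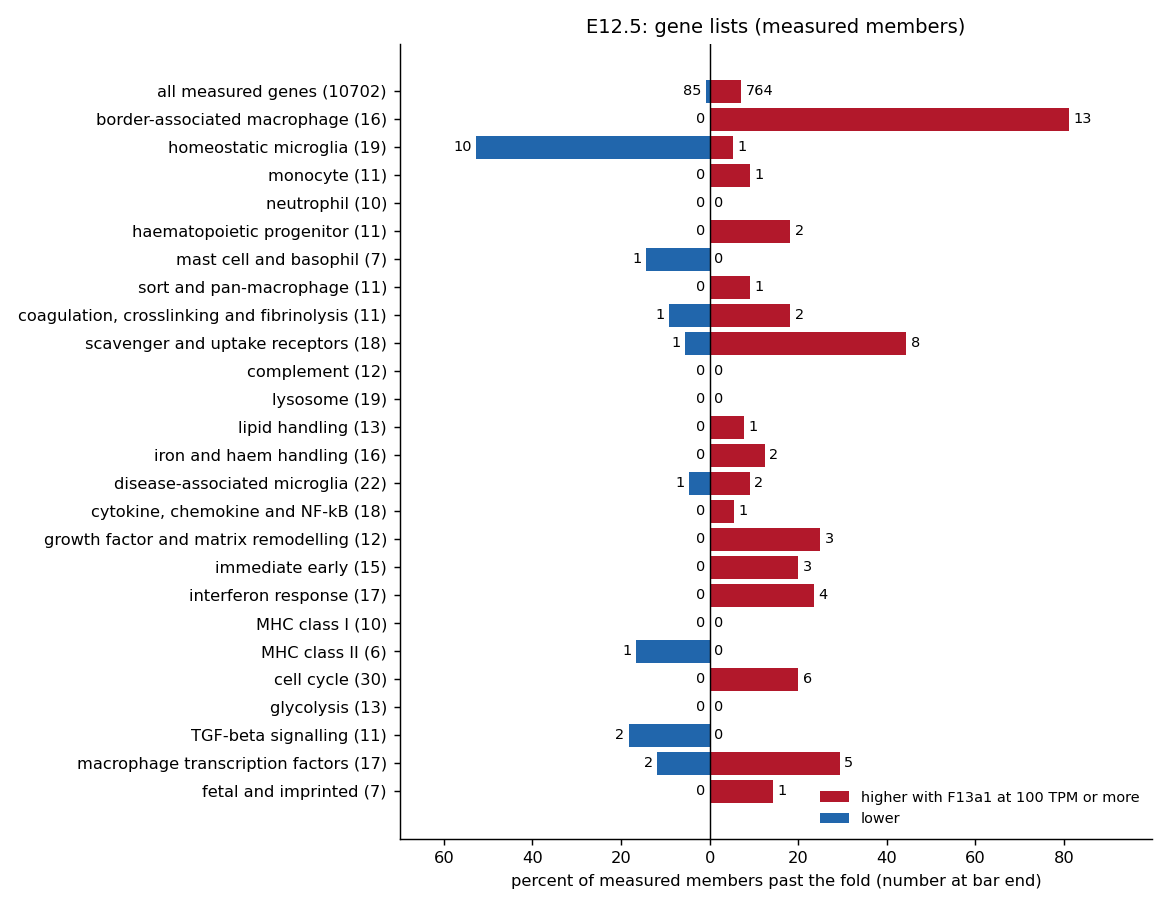
Percent of measured members of each gene list that were higher (red, to the right) or lower (blue, to the left) in F13a1-high than in F13a1-negative E12.5 cells, with the number of genes at the end of each bar and the number measured in brackets; lists with 5 measured members or more are shown. The border-associated list has 13 of 16 higher and the homeostatic list 10 of 19 lower, while all measured genes have 7.14% higher and 0.794% lower.

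Cells with markers of other kinds were found in both sets and weighed on some means. At least 3 monocyte or neutrophil markers at 100 TPM were held by 10 of 76 F13a1-high and 2 of 36 F13a1-negative cells. Ccr2, a chemokine receptor of monocytes, was the 1 of 11 measured monocyte markers past the fold, a count near the 7.14% of all genes, at means of 113.81 and 42.42 TPM and at 100 TPM in 15 and 2 cells. Without the cells marked in this way, 13 border-associated markers were higher and 10 homeostatic ones lower, against 7.59% and 1.03% of all genes. Neutrophil genes rested on single cells: 1 cell carried 99.6% of Ngp in the F13a1-high set, and 1 cell carried 99.95% of it in the other. The mast cell genes Cpa3 and Cma1 reached 100 TPM in 2 F13a1-negative and in 0 F13a1-high cells, and of the summed Pax6, a neural progenitor gene that was lower, 97.6% lay in 1 F13a1-negative cell. Pax6 reached 100 TPM in 2 F13a1-high and 6 F13a1-negative cells, and at least 1 of 10 neural markers did so in 2 and 9 cells. The part of these cells in the other differences was not tested.

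The E16.5 cells, another sample, were divided at the same levels and gave 1148 higher (10.4%) and 1022 lower (9.28%) of 11018 measured genes. Of the E12.5 genes, 31.2% of the 764 higher ones were also higher at E16.5, where they made up 20.7% of the higher genes, and 29 were lower there. Of the 85 lower ones 49 were also lower (57.6% and 4.79%), and 2 were higher. All 12 leading higher genes and 11 of the 12 leading lower genes passed the fold in the same direction at E16.5; Golm1 was the exception, at 93.36 and 148.67 TPM. Of 19 measured border-associated markers 16 were higher and 0 lower, and the median log2 ratio was 6.18, but the median difference of mean log2 was 3.29, near the 2.98 at E12.5. Of 19 homeostatic markers 16 were lower and 0 higher there, at a median of -3.53. No test was made between the ages.

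Levels at E16.5 were as follows. Pf4 had lowest, median and highest levels of 6.21, 8729 and 25070.9 TPM in the 54 F13a1-high cells and 0, 1.59 and 91.6 TPM in the 12 F13a1-negative cells. Mrc1 had levels of 15.8, 3200 and 9107 TPM against 0.34, 2.50 and 1284 TPM. The sets thus overlapped for both genes, by few cells. At least 5 border-associated markers were held by 50 of 54 and 0 of 12 cells, the latter allowing a share of up to 25%. At least 5 homeostatic markers were held by 33 of 54 and 12 of 12 cells, and at least 5 of both by 31 of 54 and 0 of 12. Cd163 and Cbr2, below the measured level at E12.5, passed the fold at E16.5 with log2 ratios of 6.80 and 4.77. Gas6 did not pass it at E16.5, at 276.54 and 149.35 TPM, where its log2 ratio was 0.88. Spi1 had means of 28.25 and 129.29 TPM there (log2 ratio -2.15) but a difference of mean log2 of 0.36, so its measures differed in sign and it was not counted.

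Across all E16.5 cells the genes whose rank order was most like that of F13a1, of 6930 ranked, were Lyve1 (Spearman rho 0.81), Pf4 (0.80), Mrc1 (0.77), Dab2 (0.76) and Ednrb (0.71). Eps8, Msr1, Ms4a4a, Cfp and Lmna followed at 0.67 to 0.65. Across all E12.5 cells the first 5 had rho values of 0.42, 0.59, 0.62, 0.64 and 0.54, so Dab2 and Mrc1 stood above Lyve1 there. Cfp, which encodes properdin, and Lmna, which encodes lamin A, had only 0.17 and 0.13 at E12.5.

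**Figure D5:**
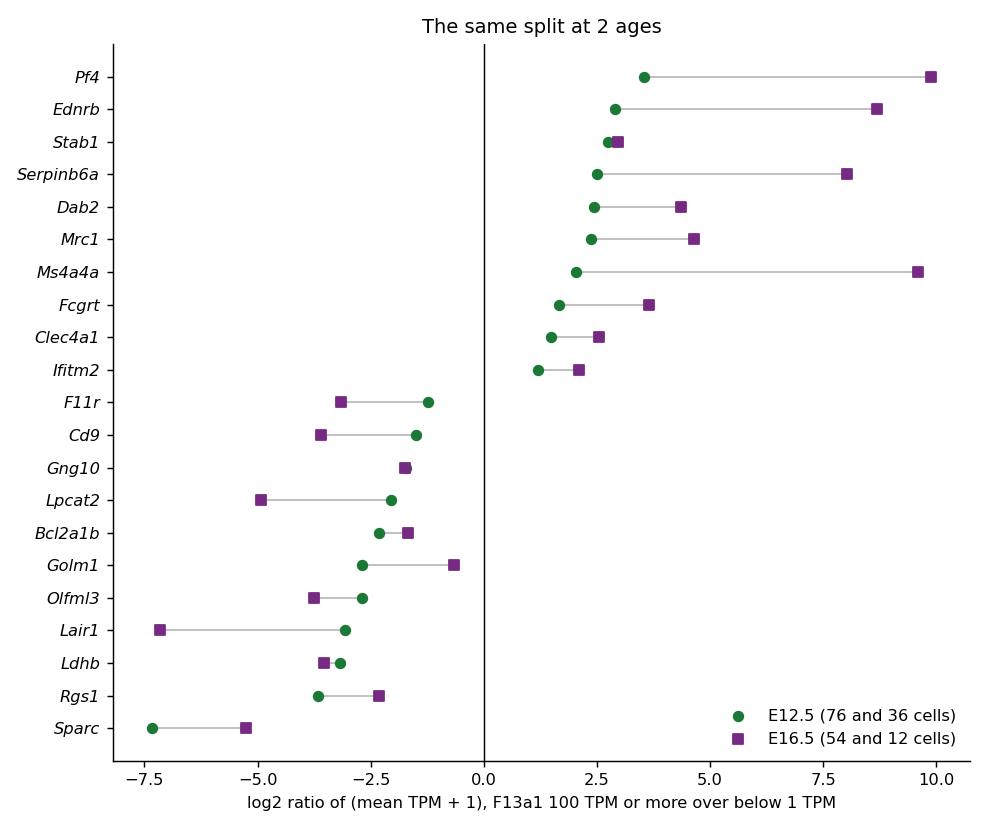
Log2 ratio of mean TPM with 1 TPM added, F13a1-high over F13a1-negative cells, for leading genes of E12.5 (circles, 76 and 36 cells) and the same genes at E16.5 (squares, 54 and 12 cells); each row is a gene and no error is drawn because each age is 1 sample. All genes shown keep their side, with Pf4 at 3.54 and 9.89 and Golm1 at -2.69 and -0.67.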

How the data were processed

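The authors deposited 1 table of TPM values for 43280 genes. The submitters' processing notes list RSEM 1.2.19, Seurat and GRCm38; no aligner, annotation or filter is named in them. TPM keeps no depth, and no molecular identifiers or strand are recorded, so reads per cell are unknown, overlapping and near-identical genes cannot be separated, and no doublet caller was run. The 272 E12.5 and E16.5 columns were used. None were identical, and their sums were 997910 to 1000000. A pair of F13a1-high E12.5 cells was close, however. Their summed border-associated markers were 9478 and 9459 TPM, their summed homeostatic markers 7840 and 7776 TPM, and Pf4 was at 945 and 957 TPM. Whether this pair came from the same cell was not tested, and both were kept. Single cells were the samples, with 1 sample per age, so no test was made.

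Measured genes, the log2 ratio (pseudocount 1 TPM) and the fold are defined in the report. Shares carry exact Clopper-Pearson 95% intervals; a share of 0 is given the limit of 3 counts. Of 43280 gene names 39379 (91.0%) matched GENCODE M21, the source of gene coordinates. The members, 32 gene lists and rules were chosen with earlier results of these data known. Named genes were Mrc1 and P2ry12, the 12 largest differences of mean log2(TPM + 1) each way (mean of 50 TPM or more, 1 TPM or more in 25% of the higher set), up to 5 per list, the sort genes and the 10 closest to F13a1 at E16.5; some are not reported here. List members named without such a rank were chosen after their values were seen. There were 16 alternatives for E12.5, and 3 were added after the data were seen. The measures were tested only on large folds planted in widely found genes of cells redrawn from the E12.5 cells. This did not test the 2-fold rule, sets that differ in genes per cell, or means that rest on few cells. Tools were scipy 1.17.1, pandas 2.3.3 and numpy 2.4.6, with plots by matplotlib 3.10.9, under Python 3.11.15.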

Additional observations from a re-analysis of the deposited data

How the results depend on the processing

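Of 2963 gene values under 19 alternatives, 2 changed sign after passing the fold: Ccr2 had a log2 ratio of -0.61 with F13a1 at 1000 TPM or more, and Scarb2 0.0212 against the cells listed at 0 for F13a1. No list median that passed the fold changed sign under them. The percent of measured genes that were higher or lower (7.14% and 0.794%) moved by over 1.5 times as follows. A pseudocount of 0.1 TPM gave 12.99% and 1.73%, and 10 TPM gave 1.72% and 0.271%. No filter on the mean gave 3.53% and 0.392%, and a minimum of 20 TPM gave 11.06% and 1.25%, since other numbers of genes were then measured. The ratio of means alone gave 27.6% and 16.2%, and the difference of mean log2 alone 17.3% higher. Lower genes made up 1.26% with F13a1 at 1000 TPM or more, 4.27% against the cells listed at 0 and 1.28% without the F13a1-negative cells with Pf4 at 100 TPM, and 1.51% with mitochondrial transcripts below 20% of TPM. Leaving out the highest cell of each gene gave 14.2% higher. The cells with the lower title numbers gave 2.68% lower, and those with the higher numbers 15.4% higher and 1.70% lower; what these numbers stand for is not known. With 4000 genes or more per cell 2.56% were lower. Except where stated, the cause was not tested. The homeostatic median moved to -1.21 as a difference of mean log2, -1.70 with F13a1 at 10 TPM or more and -2.95 at 1000 TPM or more. The border-associated median moved to 3.16 without the highest cells, 3.60 without the Pf4 cells, a direction that choosing cells by a listed gene fixes, and, at E16.5, 3.29 as a difference of mean log2. A minimum of 1000 genes removed no E12.5 cell. Replicates could not be left out, since each age is 1 sample.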

Other observations

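The 34 E12.5 cells with F13a1 from 1 to below 100 TPM were not a midpoint between the sets. Their medians were 3.48 TPM for Mrc1, 0 TPM for Pf4 and 7.58 TPM for P2ry12, and 10, 9 and 13 of the 34 cells reached 100 TPM of these genes. At least 5 homeostatic markers at 100 TPM were held by 15 cells, at least 5 border-associated ones by 7, both by 4 and neither by 16. Of these 16 cells, 11 held fewer than 4000 genes at 1 TPM. Over all 34 cells the upper quartile of the mitochondrial share of TPM was 52.3%, against 7.01% in the F13a1-high cells and 10.3% in the F13a1-negative cells. Sparc reached 100 TPM in 7 of the 34 cells, each of which also held P2ry12 at that level, and Lyve1 in 2, both with Mrc1.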
